A study of Mus musculus with 36 samples.

Results

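Genes of fatty acid oxidation and ketogenesis were examined for trimethylation of histone H3 at lysine 9 (H3K9me3), a hallmark of heterochromatin, in mouse liver. The set comprised 8 genes, Cpt1a, Cpt2, Acadm, Acadl, Ehhadh, Pdk4, Ppargc1a and Fgf21, of 22325 genes named in the deposited tables of chromatin immunoprecipitation followed by sequencing (ChIP-seq). Its members were the rows whose nearest-gene symbol was 1 of these names. This gave 262 of 786789 rows over 6 tables. Each row is a bin, a stretch of about 500 bp or less of a broad H3K9me3 peak.

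The liver came from male and female offspring of an in-house Reg3g fl/fl colony, used as littermate control mice. Their dams had received either a Western-style diet (maternal obesity, MO) or a chow diet (control). Offspring were taken at 3 weeks, before weaning, or at 8 weeks, after chow feeding from weaning, and all were killed in the fed state. Diet of the dam, sex and age thus made 8 groups with 4 ChIP libraries each, 32 in all, and 4 further libraries were of input chromatin. Whole liver was used, so hepatocytes and the other cells of the organ were not separated, and a higher share of cells with the mark cannot be told apart from more of it per cell.

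The value used here for each bin was its average level in log2 CPM (reads of the bin scaled to library size, on a log2 scale, and not divided by the length of the bin) over the 8 libraries of a table, which pool control and MO animals. Per-library values were not analysed here, so no value below carries a replicate error or a test, and the effect of MO on these genes is not described. Of the 6 tables, 4 share no library with each other. They pool females at 3 weeks, females at 8 weeks, males at 3 weeks and males at 8 weeks. The other 2 tables, of control females and of control males at both ages, reuse control libraries of those 4. Each table was scaled on its own, and the median bin was at 2.03 to 2.74 log2 CPM depending on the table. A plain level therefore cannot be compared across tables, and member levels are given with their percentile among all bins of their own table or as a difference from which the median over matched bins was taken off.

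Fatty acid oxidation is the main source of hepatic energy in the suckling and the fasted state, when milk fat or adipose lipid replaces carbohydrate. Long-chain fatty acids enter mitochondria through the carnitine shuttle, are shortened in repeated cycles that an acyl-CoA dehydrogenase opens, and leave the liver in part as ketone bodies, while very long chains are first shortened in peroxisomes. Many of these genes are induced by the nuclear receptor PPARα, which binds direct repeats of the AGGTCA half-site as a heterodimer with RXR. H3K9me3 is best known for silencing repeats and genes of other lineages, so it is of interest where it lies at genes that liver uses.

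The first question was whether peaks reached the start sites of these genes. A broad peak covered the main RefSeq start site of Pdk4 and of Fgf21 in all 6 tables, of Ehhadh in 4, of Acadl and of Cpt1a in 3, and of Acadm in 2. No listed peak covered the main start site of Cpt2 or of Ppargc1a in any of the 6. For comparison, 40.4 to 43.5% of the start sites of all 32851 RefSeq promoter windows lay in a listed peak, depending on the table. These windows outnumber the 21900 RefSeq protein-coding genes used further below, and the kinds of gene among them were not separated. The Acadl and Cpt1a start sites were covered in the 3 tables of female libraries, and that of Acadm in 2 of those 3. In the 3 tables of male libraries the nearest peak at these genes lay within the gene, with its near edge 112 bp past the start site at Acadl, 98 bp at Cpt1a and 52 bp at Acadm. Peaks were defined once per sex, so the tables of 1 sex repeat the same peak coordinates and are not separate peak calls. A peak can still be listed in 1 table of a sex and not in another, such as that at the Ehhadh start site in control males. The step that left such a peak out is not given in the sources used here.

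The upstream sequences of 5 members are shown because they carry this contrast. At Pdk4, Acadl, Ehhadh and Acadm a listed bin overlapped the 250 bases before the RefSeq start site in at least 2 tables, and Ppargc1a is the counterexample with none. Each sequence is the stretch before the start site without any base that GENCODE places in the gene, which leaves out the last 31 bases at Pdk4 and the last base at Ppargc1a. They are from RefSeq, build GRCm38.p6 (mm10), read 5′ to 3′ on the strand of the gene, and capitals mark CpG dinucleotides. Pdk4 is at chr6:5496310-5496528, Acadl at chr1:66863310-66863559, Ehhadh at chr16:21787835-21788084, Acadm at chr3:153944644-153944893 and Ppargc1a at chr5:51567727-51567975, all on the minus strand.
Pdk4: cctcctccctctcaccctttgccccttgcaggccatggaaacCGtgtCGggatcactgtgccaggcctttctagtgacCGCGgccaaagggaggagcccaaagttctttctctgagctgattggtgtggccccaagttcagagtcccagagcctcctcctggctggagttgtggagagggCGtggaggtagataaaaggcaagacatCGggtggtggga
Acadl: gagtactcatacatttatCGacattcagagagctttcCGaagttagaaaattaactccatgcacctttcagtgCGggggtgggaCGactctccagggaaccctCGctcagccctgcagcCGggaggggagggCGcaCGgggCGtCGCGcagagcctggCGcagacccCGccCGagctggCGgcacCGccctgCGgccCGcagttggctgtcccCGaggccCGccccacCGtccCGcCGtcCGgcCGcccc
Ehhadh: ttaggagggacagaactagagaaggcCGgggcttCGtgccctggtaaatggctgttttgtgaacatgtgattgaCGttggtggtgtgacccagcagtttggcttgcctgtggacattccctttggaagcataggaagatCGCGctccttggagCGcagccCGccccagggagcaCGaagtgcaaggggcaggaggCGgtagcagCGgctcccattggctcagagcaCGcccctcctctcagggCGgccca
Acadm: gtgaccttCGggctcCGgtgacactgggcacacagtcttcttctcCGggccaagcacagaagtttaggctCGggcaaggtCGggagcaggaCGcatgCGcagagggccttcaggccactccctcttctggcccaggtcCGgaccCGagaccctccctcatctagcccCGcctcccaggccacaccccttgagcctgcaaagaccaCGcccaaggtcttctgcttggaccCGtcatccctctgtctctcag
Ppargc1a: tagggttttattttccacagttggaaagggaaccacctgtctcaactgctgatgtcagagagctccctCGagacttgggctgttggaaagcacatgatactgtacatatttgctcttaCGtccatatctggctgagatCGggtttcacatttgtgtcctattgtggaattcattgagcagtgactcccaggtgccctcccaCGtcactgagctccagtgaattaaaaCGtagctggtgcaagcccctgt

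The sequence of Acadl held 25 CpG dinucleotides and was 68.0% G and C, the highest of the 8 members. That of Ppargc1a held 5 and was 48.2% G and C. Over all 32851 windows the median was 6 CpG dinucleotides and 52.4% G and C. The bin at Pdk4 covered the whole 250-base window in the 3 female tables but 21 bases of it in the 3 male tables. At Ehhadh 167 bases were covered in the female tables and 66 in the table of control males. At Acadl 38 bases and at Acadm 12 bases were covered, in female tables only. Over all windows 19.3 to 22.9% were overlapped by a listed bin. No listed bin overlapped those of the other 4 members, for which the peaks differ. A peak spanned the Fgf21 start site in all 6 tables and that of Cpt1a in the 3 female tables, but the 1 bin listed for it lay elsewhere in the peak, whereas Cpt2 and Ppargc1a had no listed peak over the start site. How the listed bin of a long peak was chosen is not given in the sources used here.

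Short motifs were searched on both strands of the 250-base windows. The AGGTCA half-site occurred 1 time each at Cpt1a and Acadm and at no other member, and 14.0% of all windows hold it. A direct repeat of AGGTCA with a single base between the copies was found at none of the 8, and in 0.033% of all windows. The GC box GGGCGG occurred at Acadl (4 times), Fgf21 (3 times), and Cpt1a, Cpt2 and Ehhadh (2 times each), and 32.7% of all windows hold it. CCAAT occurred 1 time each at Cpt1a, Ehhadh and Pdk4, and in 33.9% of all windows. These are matches of letters in this window and say nothing about binding.

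The next question was where the bins lay. Bins that overlapped or came from overlapping peaks were merged over the 6 tables into 64 places, of which 36 were seen in both sexes, 21 in all 6 tables, 11 in female tables only and 17 in male tables only. The share in both sexes was 56.25%, against 56.9% of the 197070 places formed in the same way for all genes, and the share in a single sex was near that of all genes too (17.2 and 26.6% in females and males, against 18.8 and 24.3%). Because peak sets were made separately for each sex, a place seen in 1 sex may be a peak that did not pass the caller in the other. By the annotation of their bins, 34 places were intergenic, 16 were in gene bodies and 14 were in promoters, meaning within 3 kb of any annotated start site. Promoter places were seen in both sexes at 12 of 14, gene body places at 11 of 16 and intergenic places at 13 of 34, that is 85.7, 68.75 and 38.2%. Over all genes these shares were 66.3, 55.7 and 54.0%, and no test was made of the difference. Intergenic places had a median of 53.4% repeat-masked bases, those in gene bodies had none at the median and those in promoters 7.09%.

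**Figure D1:**
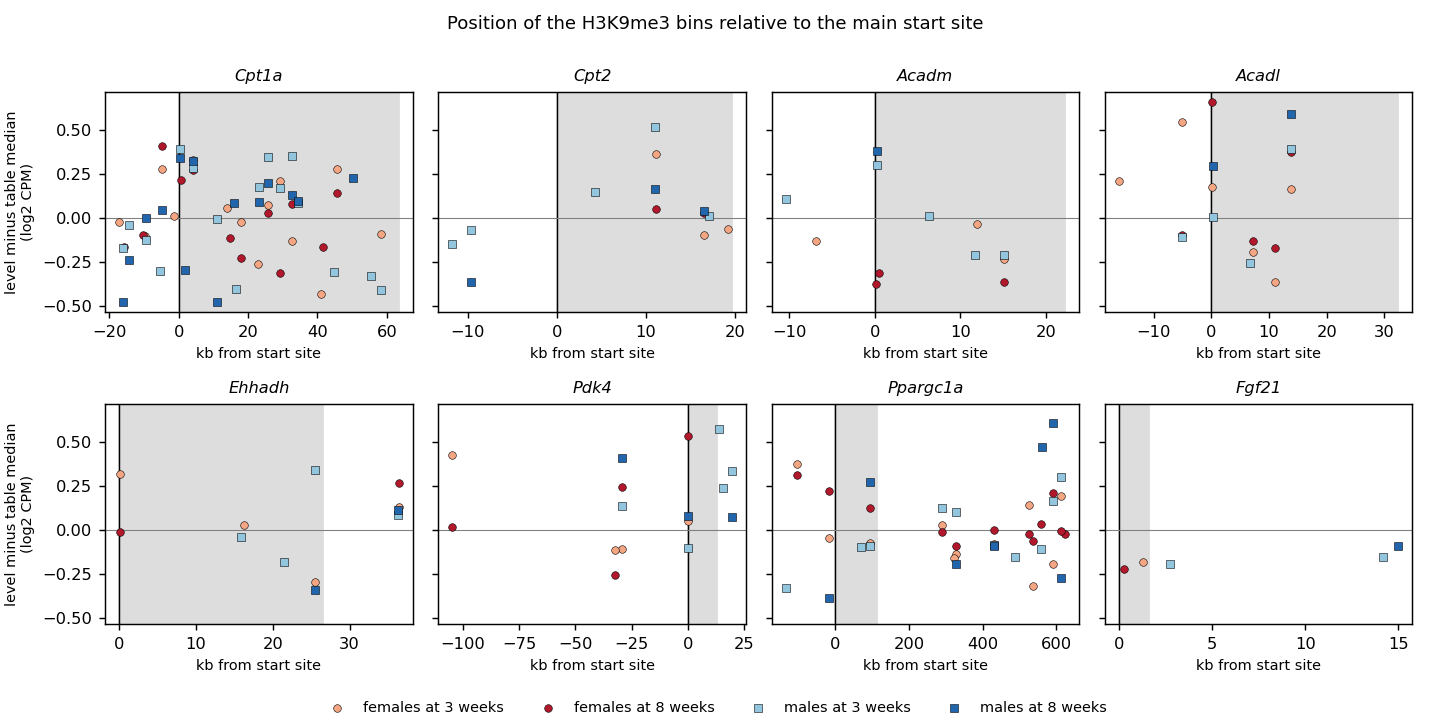
Position of each listed bin (x axis, kb from the main start site in the direction of transcription, grey for the GENCODE gene) and its H3K9me3 level (y axis, log2 CPM minus the median of all bins of its table) for the 4 pools that share no library; each point is the average of 8 libraries. Bins of Cpt1a run along most of the gene, most bins of Ppargc1a lie beyond the end of its gene, and Pdk4 has its only genic bin at the start site.

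The number of member bins differed between tables. Females had 46 member bins of 140214 at 3 weeks and 41 of 116257 at 8 weeks. Males had 51 of 159357 at 3 weeks and 33 of 102145 at 8 weeks. The table of control females held 40 member bins of 120683, with none for Fgf21, and that of control males 51 of 148133. In the other 5 tables all 8 genes had at least 1 bin.

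The average level of the member bins was close to that of all bins. The median member bin had a level relative to its table median of -0.03 log2 CPM in females at 3 weeks, at the 45.6th percentile of that table, and of -0.01 in females at 8 weeks, at the 48.8th. It lay at the 49.3rd percentile in males at 3 weeks and at the 60.1st in males at 8 weeks, where its relative level was 0.09. Above the 90th percentile of their table were 11 of the 262 member bins, from 4 genes. They were 5 bins of Acadl, 3 of Pdk4, 2 of Cpt2 and 1 of Ppargc1a. The highest of the 11, a bin downstream of Pdk4 in males at 3 weeks, was at the 95.9th percentile. By definition, 90% of all bins of a table lie at or below its 90th percentile. The share of member bins above it was 4.35 and 4.88% in females at 3 and 8 weeks, and 3.92 and 6.06% in males. No test was made of this share. The 2 control tables reuse libraries of the 4 pools, so stretches of Cpt2 and Acadl are counted in more than 1 table.

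**Figure D2:**
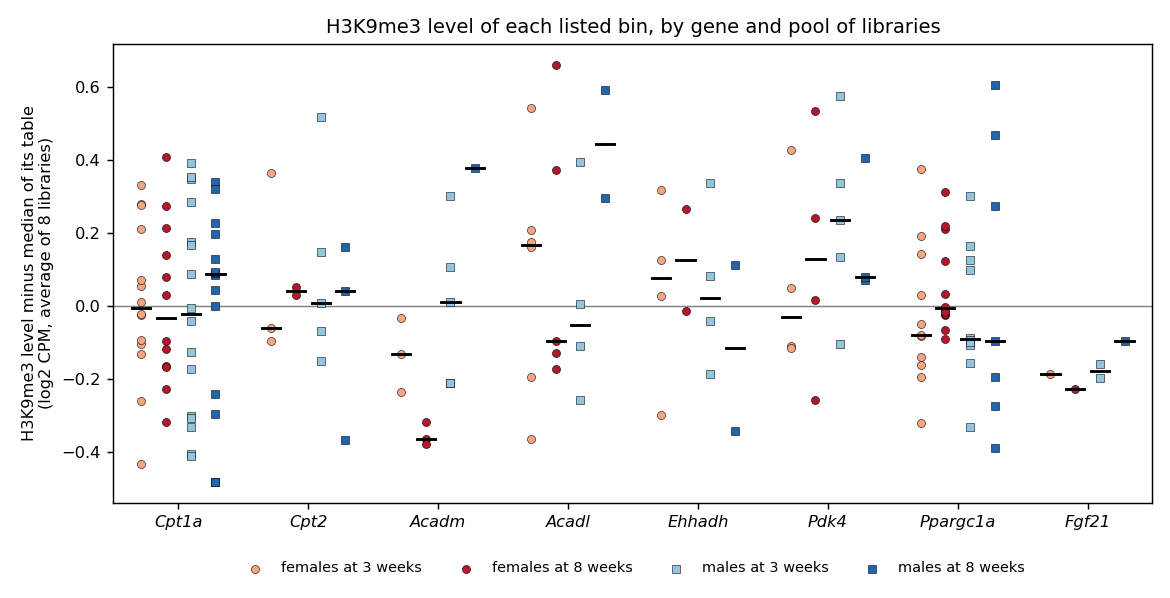
H3K9me3 level of each listed bin (y axis, log2 CPM minus the median of all bins of its table) for each gene in the 4 pools that share no library; each point is the average of 8 libraries and black bars are medians over the bins of a gene. Over the 4 pools together the bins of every gene but Fgf21 lie on both sides of 0, while within a pool some genes are on 1 side, such as Acadm below 0 in females at both ages.

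Cpt1a, which commits long-chain fatty acids to the mitochondrion as the outer membrane carnitine palmitoyltransferase, had 86 bins over the 6 tables, the most of any member. There were 14 in females at 3 weeks, 12 in females at 8 weeks, 16 in males at 3 weeks and 14 in males at 8 weeks. As many bins or more were listed for 12.3, 12.1, 12.6 and 7.80% of the genes with a bin, respectively. They formed 14 places on chromosome 19, of which 12 were seen in both sexes and 9 in all 6 tables, and they ran from 17.5 kb before the main start site to 58.5 kb after it. The longest place, 17183 bp, lay in the later part of the gene (chr19:3361709-3378891).

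High Cpt1a bins were found near its start and along the gene. An intronic bin centred 4.1 kb after the start site (chr19:3327128-3327628 in females, shifted by 3 bp in males) was at 2.74 log2 CPM in females at 3 weeks, 2.90 in females at 8 weeks, 2.32 in males at 3 weeks and 3.06 in males at 8 weeks. These levels were at the 86.96th, 76.6th, 82.1st and 80.5th percentiles. The bin just inside the gene (chr19:3323399-3323899) was at 2.42 in males at 3 weeks and at 3.08 in males at 8 weeks, the 89.1st and 81.7th percentiles, and was the highest Cpt1a bin in both. Next in males at 3 weeks came bins further into the gene (chr19:3355831-3356331 and chr19:3348736-3349236), at 2.39 and 2.38. A bin centred 4.9 kb upstream (chr19:3318198-3318652), 71.4% G and C and 99.3% repeat-masked, was at 2.69 in females at 3 weeks and at 3.04 in females at 8 weeks, the 83.2nd and 84.8th percentiles. It was not as high in males, where the overlapping bin at 8 weeks (chr19:3318222-3318618) was at the 55.5th percentile. At 3 weeks the male peak there had another listed bin (chr19:3317722-3318222), at the 9.88th percentile. Low Cpt1a bins in males at 8 weeks were an intergenic one (chr19:3307055-3307555) at the 0.954th percentile and one next to an internal start site (chr19:3334114-3334614) at the 0.959th, both at 2.26 log2 CPM.

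Cpt2, the inner membrane partner that returns acylcarnitines to acyl-CoA, had 3 bins in females at 3 weeks, 2 in females at 8 weeks, 5 in males at 3 weeks and 3 in males at 8 weeks, in 6 places on chromosome 4. The nearest listed peak to its main start site was 10996 bp inside the gene in all 3 female tables. That peak (chr4:107912326-107912593 in females, chr4:107912352-107912791 in males) was annotated as a promoter only because an alternative transcript starts there. It held the highest Cpt2 level in each of the 4 pools, with 2.77 log2 CPM in females at 3 weeks, 2.68 in females at 8 weeks, 2.55 in males at 3 weeks and 2.90 in males at 8 weeks. These were at the 88.9th, 56.2nd, 94.4th and 68.0th percentiles.

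Acadm, the medium-chain acyl-CoA dehydrogenase, had low bins in females at 8 weeks. Its 3 bins in that pool lay between 2.25 and 2.31 log2 CPM, at most at the 9.30th percentile, and 2 of them are short, 234 and 217 bp. The bin over its start site (chr3:153944439-153944655) was at 2.25 there, the 4.67th percentile, and at 2.11 in control females, the 0.155th percentile of that table. In males the bin just inside the gene (chr3:153944083-153944583) was at 2.34 at 3 weeks and 3.12 at 8 weeks, the 83.4th and 83.8th percentiles. The bins of both sexes at this start site do not cover the same bases.

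Acadl, the long-chain acyl-CoA dehydrogenase, held 5 of the 11 member bins above the 90th percentile, with a stretch counted again in each table that lists it. The bin over its start site in females (chr1:66862946-66863347) was at 2.58 log2 CPM at 3 weeks, the 73.3rd percentile, at 3.29 at 8 weeks, the 93.5th, and at 3.28 in control females, the 95.3rd. The male bin beside the start site (chr1:66862820-66863197) was at 2.04 at 3 weeks and 3.04 at 8 weeks, the 50.6th and 78.9th percentiles. An intronic bin (chr1:66849275-66849714 in females, chr1:66849203-66849690 in males) was at 2.57 and 3.00 in females at 3 and 8 weeks, the 72.1st and 82.9th percentiles, and at 2.43 and 3.33 in males, the 89.2nd and 91.98th. This intronic bin also overlaps the annotated gene Gm15793, so its reads cannot be given to Acadl alone. The bin centred 5.0 kb upstream (chr1:66868075-66868575) was at 2.95 in females at 3 weeks, the 95.8th percentile, and at 2.53 in females at 8 weeks, the 37.4th.

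Ehhadh, the peroxisomal bifunctional enzyme, had 4 bins in each sex at 3 weeks and 2 in each sex at 8 weeks. Its start-site bin in females (chr16:21787501-21788001) was at 2.73 log2 CPM at 3 weeks and at 2.62 at 8 weeks, the 86.2nd and 48.4th percentiles, and the bin that control males had there (chr16:21787400-21787900) was at 2.04, the 42.4th percentile. The pools of males at 3 and at 8 weeks listed no bin at the start site. In the last exon of the gene males had 2.37 at 3 weeks and 2.40 at 8 weeks (chr16:21762102-21762602), the 85.9th and 6.63rd percentiles. A fully repeat-masked bin beyond the end of the gene (chr16:21751261-21751635 in females) was listed in all 6 tables.

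Pdk4, the kinase that shuts pyruvate dehydrogenase when fat is burned, was the member whose start-site bin was listed in every table. In females (chr6:5496131-5496558) it was at 2.46 log2 CPM at 3 weeks, the 57.6th percentile, and at 3.17 at 8 weeks, the 90.1st. In males (chr6:5496030-5496299) it was at 1.93 at 3 weeks and at 2.82 at 8 weeks, the 35.1st and 59.4th percentiles, and most of this plain rise was the shift of 0.63 between the male tables. The controls pooled over both ages were at 2.98 in females, the 83.9th percentile, and at 2.23 in males, the 64.7th. All other Pdk4 bins were intergenic. One of these, a bin centred 29.4 kb upstream that is fully repeat-masked in females (chr6:5525590-5525827), was also listed in all 6 tables.

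Ppargc1a, the coactivator PGC-1α that is induced by fasting, had 63 bins over the 6 tables but only 8 within its GENCODE gene. The others were intergenic, most of them downstream and up to 624.1 kb beyond the start site, and were assigned to it as the nearest gene. The bins centred 15.3 kb, 103.4 kb and 134.0 kb upstream lie outside the GENCODE gene but inside the longer gene in RefSeq. That longer gene reaches upstream to chr5:52115853, and peaks over start sites other than the main start site were not looked for. No promoter bin was listed for it in any table, and in 5 of the 6 tables its nearest peak was upstream of the main start site, at least 15065 bp away. Its highest bin (chr5:50975537-50976037, fully repeat-masked) was at 3.35 log2 CPM in males at 8 weeks, the 92.4th percentile, and at 2.20 in males at 3 weeks, the 70.5th. The gene body place that all 6 tables listed was at 2.33 in females at 3 weeks and 2.75 in females at 8 weeks (chr5:51474008-51474508), the 37.6th and 63.9th percentiles.

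Fgf21, the hepatokine of the fasted liver, had 1 bin in females at each age, 2 in males at 3 weeks and 1 in males at 8 weeks, all below their table medians. In females the bin was at 2.22 log2 CPM at 3 weeks (chr7:45613958-45614458) and at 2.40 at 8 weeks (chr7:45614958-45615458), the 20.3rd and 19.5th percentiles. These are different bins of 1 peak of 6342 bp that covers most of the gene and its start site. A peak of 5632 bp in males also spans the start site, but its listed bin was nearest to the neighbouring gene Fut1 in all 3 male tables, as it was for the female peak in control females. These Fut1 bins do not cover the start site. They were at 2.18 log2 CPM in males at 3 weeks, 3.20 in males at 8 weeks and 2.66 in control males. The table medians were lower, at 2.03, 2.74 and 2.10. In control females the bin was at 2.51, below the median of 2.65. The count by symbol therefore leaves out the peak at the Fgf21 start site in 4 of 6 tables.

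The age comparison asked how H3K9me3 at these genes differed between suckling and sexually mature offspring. Bins with identical coordinates in the 3-week and the 8-week table of a sex were matched, and the median difference over all matched bins (0.23 log2 CPM in females, 0.63 in males, both higher at 8 weeks) was taken off. Of 76657 matched bins in females 30 belonged to 7 members, and of 69096 in males 24 belonged to 7 members. Fgf21 had no matched bin in either sex. The centred member differences had a median of 0.01 in both sexes and ran from -0.64 to 0.48 in females and from -0.61 to 0.52 in males. As many bins lay above 0 as below it, 15 of 30 in females and 12 of 24 in males.

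A rule of size of 1.5-fold past the median was used in place of a test. In females no member bin was higher at 8 weeks by this rule, against 2.75% of all matched bins, and 1 was lower, against 1.30% of all. In males no member bin was higher, against 3.31% of all, and 1 was lower, against 1.67%. With 30 and 24 member bins, counts of 0 and 1 are close to these background shares and are not a result about the members. The bin in females was that upstream of Acadl, which had a centred difference of -0.64 from levels of 2.95 at 3 weeks and 2.53 at 8 weeks. The bin in males was that in the last exon of Ehhadh, with a centred difference of -0.61, although its plain level was almost the same at both ages (2.37 and 2.40).

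**Figure D3:**
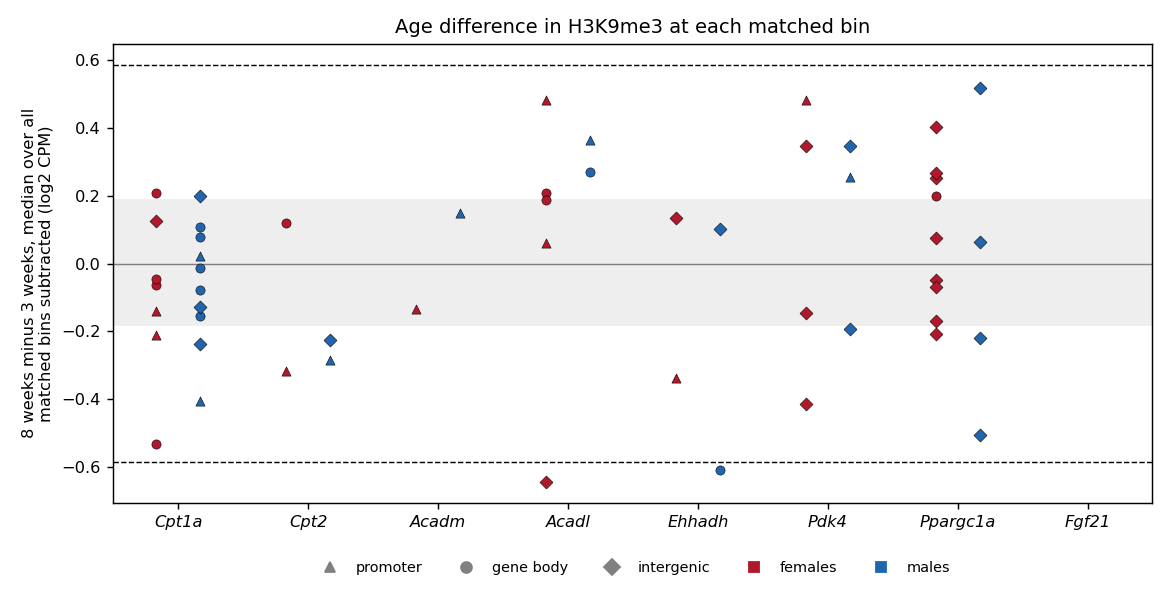
Age difference of each matched member bin (y axis, level at 8 weeks minus level at 3 weeks in log2 CPM, with the median over all matched bins taken off), by gene and sex; dashed lines mark 1.5-fold and the grey band is the interquartile range of all matched bins in females. The points spread evenly about 0, a single bin per sex lies past the lower line, and Fgf21 has no matched bin.

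The start-site bins of Acadl and Pdk4 had the largest positive differences in females. In Acadl the centred difference was 0.48 in females (a 1.40-fold higher level at 8 weeks) and 0.36 at the neighbouring male bin. In Pdk4 it was 0.48 in females and 0.26 in males. Ehhadh went the other way at its start site in females, with -0.34. The bin of Cpt2 at its internal start site was also lower at 8 weeks after centring, by -0.32 in females and -0.28 in males. Bins over start sites were on the whole higher at 8 weeks, with a median centred difference of 0.11 over 5263 such bins in females and of 0.17 over 5203 in males. Among all bins within 1 kb of a start site, Acadl was at the 94.6th and Pdk4 at the 94.5th percentile in females, and at the 81.5th and 69.3rd in males. Cpt2 was at the 7.54th percentile in females and at the 8.43rd in males. Cpt1a bins near internal start sites were lower too, by -0.21 in females, the 14.8th percentile, and by -0.40 in males, the 3.40th, whereas the male bin just inside Cpt1a was at 0.02. Acadm was at -0.13 in females, the 23.1st percentile, and at 0.15 in males, the 54.2nd. Of the 6 member bins within 1 kb of a start site in each sex, 2 female and 4 male bins were thus higher at 8 weeks. The share of all such bins that were higher was 59.0% in females and 66.7% in males. The male count is at that share, and with 6 bins neither count is a result about the members. Over all matched bins the age difference also moved with level and base composition. Spearman's rho across bins in females and males was 0.34 and 0.20 with the level, 0.27 and 0.33 with the number of CpG dinucleotides, and 0.22 and 0.24 with the share of G and C. The female Acadl start-site bin had 54 CpG dinucleotides and was 76.9% G and C. Levels were also spread more widely at 8 weeks, which taking off the median does not change. In females the median and 90th percentile of all bins were 2.41 and 2.79 at 3 weeks, and 2.63 and 3.16 at 8 weeks. In males they were 2.03 and 2.44 at 3 weeks, and 2.74 and 3.27 at 8 weeks. The part of level, base composition and spread in these differences was not tested.

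Places matched in both sexes allowed the age difference to be set side by side in libraries that are not shared. There were 12 such places in 6 genes. At 10 of them the difference had the same sign in females and males, that is 83.3%, and over all 34178 such places the share was 64.3%. The 5 places with differences above 0.2 in both sexes were the bins over or beside the start sites of Acadl and Pdk4, the Pdk4 bin 29.4 kb upstream (0.35 in both), the intronic bin of Acadl (0.21 in females and 0.27 in males) and a repeat-masked bin of Ppargc1a far downstream (0.40 and 0.52). The lowest were the internal start site of Cpt2 and another distal bin of Ppargc1a (-0.21 and -0.50). Both places with opposite signs were intronic or exonic bins of Cpt1a. Bins of 1 gene are not independent, and no test was made of this share.

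**Figure D4:**
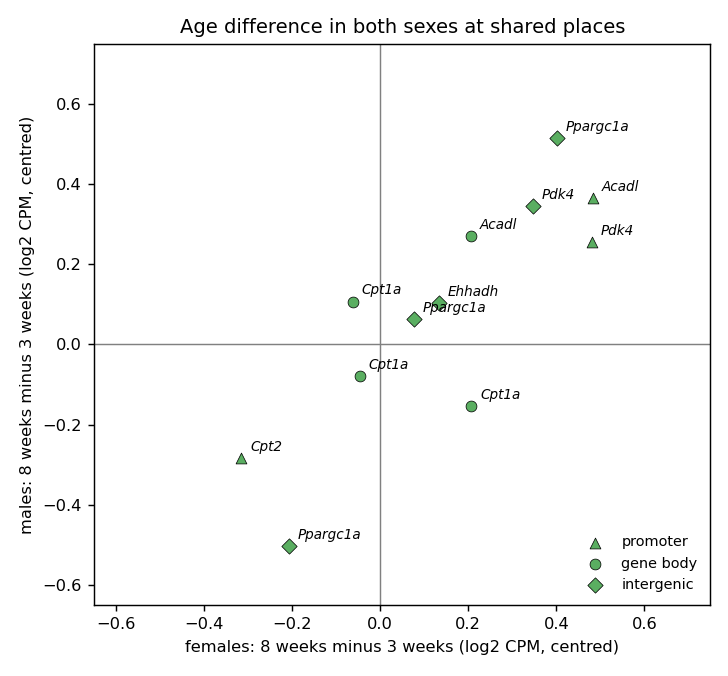
Centred age difference in females (x axis) against that in males (y axis), both in log2 CPM, at the 12 places where a bin was matched between ages in both sexes; each point is 1 place, labelled by gene, and its shape gives the annotation. Of the 12 points, 10 lie below 0 or above 0 on both axes and the other 2 belong to Cpt1a.

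The sex comparison asked whether male and female liver differed at these genes before and after sexual maturation. Peak sets differed between the sexes, so bins were matched by an overlap of at least 50% of the shorter bin, and the median difference (female minus male, 0.32 log2 CPM at 3 weeks and -0.09 at 8 weeks) was taken off. At 3 weeks 21 member bins of 61876 matched bins could be compared, with centred differences from -0.58 to 0.71 and a median of -0.04. By the 1.5-fold rule 1 was higher in females, against 1.81% of all matched bins, and none was lower, against 1.19%. At 8 weeks 18 of 52257 could be compared, from -0.71 to 0.59 with a median of -0.06. Of these 1 was higher in females, against 1.97% of all, and 1 was lower, against 1.81% of all.

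The bin higher in females at 3 weeks was that upstream of Acadl, with 2.95 log2 CPM in females and 1.92 in males and a centred difference of 0.71. The female bin there is of full length and the male bin is 341 bp long, and per length the difference was 0.17, within the rule. No male bin was listed there at 8 weeks. The bin lower in females at 8 weeks was at Acadm, close to the start site, with 2.31 in females and 3.12 in males (-0.71 after centring), where the female bin is 234 bp long and the male bin of full length, and per length the sign turned (0.39). The bin higher in females at 8 weeks was the Ppargc1a bin 15.3 kb upstream, with 2.85 in females and 2.35 in males (0.59 after centring), and both bins are of full length. In the last exon of Ehhadh females were lower at 3 weeks by a centred difference of -0.58, just within the rule, with a female bin of 99 bp against a full male bin. Per length this value became 1.78. At Acadl the female bin over the start site, 402 bp long, was matched to the male bin beside it, 378 bp long with its near edge 112 bp into the gene, so different stretches are compared. It had centred differences of 0.22 and 0.35 at 3 and 8 weeks, or 0.15 and 0.27 per length. That of Pdk4, 428 bp in females and 270 bp in males, had 0.21 and 0.44, but -0.44 and -0.22 per length, so its direction rests on how bin length is treated. Over all matched bins the sex difference moved with the log2 ratio of the bin lengths (Spearman's rho across bins 0.20 at 3 weeks and 0.22 at 8 weeks). Among bins of the same length in both sexes, 8 member bins at each age, none passed the rule at 3 weeks and the Ppargc1a bin 15.3 kb upstream alone passed it at 8 weeks. Of all such bins, 1.04 and 1.36% were higher in females at 3 and 8 weeks, and 0.76 and 1.51% were lower.

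The wider pathway was taken from a list of 80 genes that includes the 8 members. A bin in the promoter or gene body was listed for 72 of them in females at 3 weeks, 69 in females at 8 weeks, 71 in males at 3 weeks and 66 in males at 8 weeks, that is 90, 86.25, 88.75 and 82.5%. Among all 21900 RefSeq protein-coding genes the shares were 72.6, 71.2, 71.9 and 69.0%. The median genic bin of the list lay at the 46.0th, 42.9th, 45.8th and 49.3rd percentile of its table, and 4.76, 5.75, 5.04 and 3.54% of these bins were above the 90th percentile, against 7.23, 6.63, 7.49 and 7.38% for all protein-coding genes. In the order of the 4 pools, a genic bin was listed for 6, 5, 6 and 6 of 6 genes of the carnitine shuttle, for 6, 6, 6 and 5 of 6 acyl-CoA dehydrogenases, and for 7, 7, 8 and 8 of 11 genes of the other steps of the mitochondrial spiral. It was listed for 12, 11, 12 and 11 of 13 genes of peroxisomal oxidation, and for 7, 7, 7 and 6 of 7 genes of ketone body synthesis and use. For acyl-CoA synthetases and thioesterases the counts were 9, 8, 8 and 8 of 9, and for regulators 25, 25, 24 and 22 of 28. The share of the spiral genes, 63.6% in both female pools and 72.7% in both male pools, was near that of all protein-coding genes.

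The highest genic bins of the list lay outside the members. In females the promoter of the X-linked kinase Pdk3 was highest, with 3.53 log2 CPM at 3 weeks and 4.61 at 8 weeks, the 99.9th and 99.95th percentiles. At 3 weeks the peroxisomal transporter Abcd2 with 3.19 and the acyl-CoA synthetase Acsl1 with 3.18 followed, and at 8 weeks the X-linked acyl-CoA synthetase Acsl4 with 4.18 and an intron of Eci2, an isomerase of unsaturated fatty acid oxidation, with 4.09. In males a repeat-masked bin of the same Eci2 intron was highest with 3.45 at 3 weeks and 5.10 at 8 weeks, and an intronic bin of Oxct1, which uses ketone bodies outside the liver, came next with 2.76 and 4.03. The third place in males was held by Lpin1 at 3 weeks (2.76) and by Acacb, an acetyl-CoA carboxylase, at 8 weeks (3.82). Over the 6 tables the genes with most bins were Rxra (200), Fgfr1 (153), Lpin1 (145), Bdh1 (121) and Hadh (114). Cpt1a, with 86, was the seventh of the list and Ppargc1a the 13th.

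A ChIP of a histone mark does not report expression, so the labelled tissue was checked only through the mark itself. A promoter bin was listed for 3, 2, 3 and 3 of 8 hepatocyte marker genes in the 4 pools, and for 8 of 8 neuronal genes that are silent in liver in each. For Kupffer cell markers it was 0, 1, 1 and 1 of 4, for stellate cell markers 3, 3, 2 and 3 of 3, for endothelial markers 3 of 3 in each pool, and for cholangiocyte markers 4, 3, 3 and 3 of 4. The members had one at 7, 7, 6 and 5 of 8 genes, and 62.1, 61.1, 62.8 and 59.6% of all protein-coding genes had one. These counts depend on how many transcripts a gene has, since any annotated start site makes a promoter bin, and no test was made of them.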

How the data were processed

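The study sequenced H3K9me3 ChIP and input DNA from offspring liver. Per its methods, the authors aligned reads to mm10 (GRCm38) with BWA, called broad peaks with MACS2, removed blacklisted regions, merged peaks seen in most replicates of a condition for each sex, cut long peaks into bins of 500 bp, counted reads with featureCounts and compared groups with edgeR's exact test. ChIPseeker gave the nearest gene. The deposited level of a bin is the authors' average log2 CPM over the 8 libraries of a table, which pools both groups. The library totals were not used here. Columns of the deposited tables with the authors' own log2 fold changes, p-values and FDRs hold the study's comparisons and were not used.

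Rows were read with pandas 2.3.3 under Python 3.11.15. Levels were taken relative to the median of their table. Bins were matched between tables by identical coordinates (ages) or by an overlap of at least 50% of the shorter bin (sexes), the median difference over all matched bins was subtracted, and a difference past 1.5-fold was counted as higher or lower. This rule of size replaces a test, since values of single libraries were not analysed here. GC content, repeat masking and promoter sequences came from RefSeq (GRCm38.p6), and gene spans also from GENCODE. The matching was tested on simulated data. Members named in the text are all 8 genes; other pathway genes were named when among the 3 highest genic bins of a table or the 5 genes with most bins. The members and lists were chosen with earlier results of these data known.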

Additional observations from a re-analysis of the deposited data

How the results depend on the processing

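No paired analysis was possible because the values used here average the 8 libraries of a table; for the same reason no replicate could be left out. Matching ages by overlap and leaving out the sex chromosomes moved no median by more than 0.1 log2 CPM and no count of member bins past the fold. Without the subtraction of the median, the median member difference with age was 0.23 in females, with 3 bins higher and 0 lower, and 0.64 in males, with 13 higher and 0 lower. That setting gave a sex difference of 0.28 with 2 bins higher in females at 3 weeks and 0 higher at 8 weeks, and turned the Ehhadh last-exon bin in males to 0.026. The share of all matched bins past the rule was not computed without the subtraction, so these counts are not a result about the members. For age in males, the median shift over all matched bins was 0.63 log2 CPM, itself past the 1.5-fold cut of 0.585. Matched bins at or above the median level gave an age difference of -0.15 in females and 0 bins lower in males. Peaks of a single bin gave 0.11 in females and 0.19 in males, each with 0 bins lower. After the data were seen, bins were also compared per length, which gave 3 member bins higher in females at 3 weeks and 2 at 8 weeks, 0 lower at 8 weeks, and turned the Acadm bin at 8 weeks to 0.39. The background per length was 6.82 and 6.18% of all bins higher at 3 and 8 weeks, and 7.29 and 5.45% lower. Bins of the same length in both sexes gave 0 higher at 3 weeks and 0 lower at 8 weeks. A 2-fold rule left 0 member bins past it in every comparison of age and sex. The cause was not tested.

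Identical coordinates left no member bin to compare between the sexes. Counting only promoter or gene body bins gave 26, 22, 29 and 18 member bins in females at 3 and 8 weeks and males at 3 and 8 weeks, and 21 and 28 in control females and males, and raised the relative level in control males to 0.095. Promoters within 1 kb gave 7 member bins in females at 3 weeks, 8 in males at 3 weeks and 9 in control males.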

Other observations

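The bins assigned to a gene by nearest symbol are not all bins of that gene. A peak covers the start site of Fgf21 in all 6 tables, yet in 4 of them the bin kept for this peak carries the symbol Fut1. Conversely, 55 of the 63 bins that carry the symbol Ppargc1a lie outside its GENCODE gene. A count of bins per symbol therefore leaves out a peak at Fgf21 and includes distant ones at Ppargc1a.

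Only 1 bin per peak was listed in each table, and 171 of the 262 member bins came from peaks longer than 1 bin. The rule that chose the bin is not given in the sources used here, so the level of such a peak is that of 1 stretch of it. For such peaks the listed bin can sit at another position at another age. The broad peak over Fgf21 gives a different bin in females at 3 weeks and at 8 weeks, so it could not be matched between ages there.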
